A study of Rattus norvegicus with 20 samples.

Results

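The genes described here are the myogenic regulatory factors Myod1, Myog and Myf6 and the inhibitors of DNA binding Id1, Id2 and Id3, measured in rat rear leg muscle. They were chosen by name. Every probe set whose only gene symbol was one of these was taken, which gave 8 probe sets for 6 genes, of 8799 probe sets and 4737 genes on the array. Myod1, Myog, Myf6 and Id2 have 1 probe set each, and Id1 and Id3 have 2 each. All 8 passed the filter on low signal, as did 6027 of the 8799.

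The arrays fall into 4 groups of 5: muscle of diabetic rats treated with vanadyl sulfate, of untreated diabetic rats, of normal rats treated with vanadyl sulfate, and of untreated normal rats. Vanadyl sulfate is a vanadium salt studied for insulin-like effects. The cause of the diabetes, the dose, the strain, age and sex of the rats and the muscle taken are unstated in the labels. Nothing says that the 5 replicates of a group came from separate rats, so the p-values measure the spread between these samples, which may be technical. The signals are those of bulk tissue, in which fewer cells of a type and less RNA per cell cannot be told apart.

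Myogenic regulatory factors are basic helix-loop-helix proteins that pair with E proteins and bind the E-box, CANNTG, in the control regions of muscle genes. MyoD acts when precursor cells commit to muscle and myogenin when they differentiate, and Myf6, also called MRF4, is the family member most abundant in adult fibres. In adult rat muscle Myod1 transcripts are enriched in fast fibres and Myog transcripts in slow ones, and Myog is induced by loss of the nerve. Id proteins lack the basic, DNA-binding region. They capture E proteins in pairs that cannot bind an E-box and so restrain the myogenic factors, and BMP signals are a known inducer of Id genes.

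The bases before the transcript starts of Myog, Myf6 and Id2 show the E-boxes of a myogenic factor, of the factor most abundant in adult muscle and of the inhibitor with the largest difference between diabetic and normal muscle. The windows are the 250 bases up to the start in the RefSeq annotation of build GRCr8, where 5 of the 6 genes matched. They lie at chr13:48297226-48297475 on the plus strand for Myog, chr7:44701314-44701563 on the minus strand for Myf6 and chr6:47470996-47471245 on the minus strand for Id2. Each is written 5′ to 3′ on the strand of its gene, and capitals mark every CANNTG.
Myog: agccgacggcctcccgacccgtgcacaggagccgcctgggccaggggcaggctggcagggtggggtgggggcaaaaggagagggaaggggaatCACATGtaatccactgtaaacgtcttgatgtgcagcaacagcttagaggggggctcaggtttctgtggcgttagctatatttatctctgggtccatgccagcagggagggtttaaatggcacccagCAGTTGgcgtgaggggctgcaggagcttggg
Myf6: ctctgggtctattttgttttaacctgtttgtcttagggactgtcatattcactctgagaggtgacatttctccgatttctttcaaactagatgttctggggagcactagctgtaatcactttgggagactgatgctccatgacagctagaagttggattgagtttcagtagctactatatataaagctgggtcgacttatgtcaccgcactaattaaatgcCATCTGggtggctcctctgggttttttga
Id2: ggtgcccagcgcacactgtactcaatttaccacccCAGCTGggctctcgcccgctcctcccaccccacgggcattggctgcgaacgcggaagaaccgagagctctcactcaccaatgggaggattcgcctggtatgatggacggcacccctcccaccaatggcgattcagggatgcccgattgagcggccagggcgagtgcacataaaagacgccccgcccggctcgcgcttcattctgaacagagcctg
Myog has 2 matches, at 157 and 31 bases before its start, and Myf6 has 1 at 29 bases. Id2 has 1 at 215 bases, of the form CAGCTG. The windows of Id1 (chr3:161671314-161671563, plus strand) and Id3 (chr5:153656041-153656290, plus strand) hold 1, at 9 bases, and 0. CANNTG reads the same on both strands and stands in 65.5% of 33469 such windows, so a match is usual, whereas CAGCTG, which is one form of it, stands in 12.0%. The Id2 window also holds CCAAT, searched on both strands and apart from the E-box, 3 times, and 34.0% of windows hold it at least once. These matches are letters and were not tested as binding sites.

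Scaling by the authors left the arrays with trimmed means of 2503 to 2506 and medians of 377 to 648 signal units. Arrays correlated with each other at 0.683 to 0.968 on the log2 scale, and treated diabetic replicate 5 stood farthest from the rest, with a median correlation of 0.788. The log2 ratio of the 3′ to the 5′ Gapdh control probe sets, which is high where the 5′ end of a transcript is poorly copied, was 3.94 in treated diabetic replicate 1, 2.90 and 2.91 in normal replicates 1 and 3, and at most 1.30 elsewhere. Among the 7 tested markers of skeletal muscle, the actin Acta1 and the creatine kinase Ckm lay at or above percentile 99.86 of every array, and Myh1, a fast myosin, at or above percentile 65.05.

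No member passed limma's test in any of the 6 comparisons, with p-values adjusted by the Benjamini-Hochberg method over 6027 probe sets at a threshold of 0.05. The largest differences between diabetic and normal muscle were those of Id2 and of 1 Id1 probe set, both higher in diabetic muscle at an unadjusted p under 0.05. In normal rats given vanadyl sulfate, the Myod1 signal of every array lay above every untreated normal array. In treated diabetic muscle, Myf6 and 1 Id3 probe set lay below every treated normal array. Signals below are in replicate order 1 to 5, differences are on the log2(signal + 16) scale, and signals of different probe sets are not set against each other.

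The share of all 6027 probe sets past the same rule stands beside each count of members. In diabetic against normal muscle 0 of 8 passed the adjusted test, as did 1.83% of all probe sets (110), 2 of 8 had an unadjusted p under 0.05 against 16.7% of all, and 0 had groups that did not overlap, against 5.09%. For treated against untreated diabetic muscle these counts were 0 (0.498% of all), 2 (16.3%) and 0 (4.45%). For treated against untreated normal muscle they were 0 (0.0664%), 3 (9.23%) and 1 (1.84%). Between the groups given vanadyl sulfate, diabetic against normal, they were 0 (0%, with 1076 of all probe sets or 17.9% at an unadjusted p under 0.05), 3 and 2 (3.22%). For treated diabetic against untreated normal muscle they were 0 (0%), 1 (12.8%) and 0 (0.68%). In the interaction 0 passed (0.166%) and 4 had an unadjusted p under 0.05 (13.3%), all negative: Myod1, L23148_g_at of Id1 and both Id3 probe sets.

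The median difference of the 8 was 0.41 in diabetic against normal muscle, where that of all probe sets was -0.065. It was -0.30 against 0.080 for treated over untreated diabetic muscle, 0.40 against 0.18 for treated over untreated normal muscle, and -0.90 against -0.13 in the interaction. Quantile normalization moved the median of all probe sets by -0.14 in treated against untreated normal muscle and by 0.14 in the interaction, where the members' medians were then 0.32 and -0.70. Between the groups given vanadyl sulfate, diabetic against normal, the median of the 8 was -0.32 and that of all probe sets -0.15. Quantile normalization moved the latter by 0.18, to 0.036, and the members' median there was then -0.12. The first 2 comparisons share the untreated diabetic arrays, the first and the third the untreated normal arrays, and the interaction uses all 4 groups, so they are not separate observations.

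**Figure D1:**
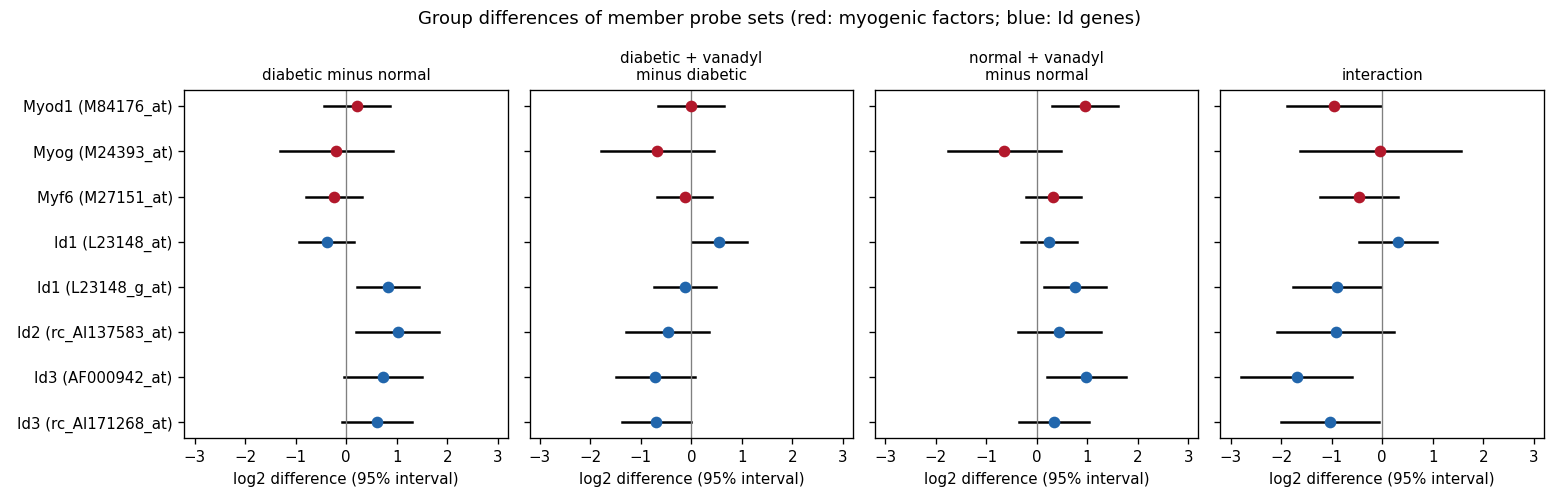
Log2 differences of the 8 member probe sets (red, myogenic factors; blue, Id genes) with 95% intervals from limma, for diabetic minus normal, treated minus untreated diabetic, treated minus untreated normal, and the interaction. The interval of Id2 and of L23148_g_at lies above 0 in diabetic minus normal, and that of Id3 AF000942_at lies lowest in the interaction, around -1.69; no adjusted p is under 0.05.

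**Figure D2:**
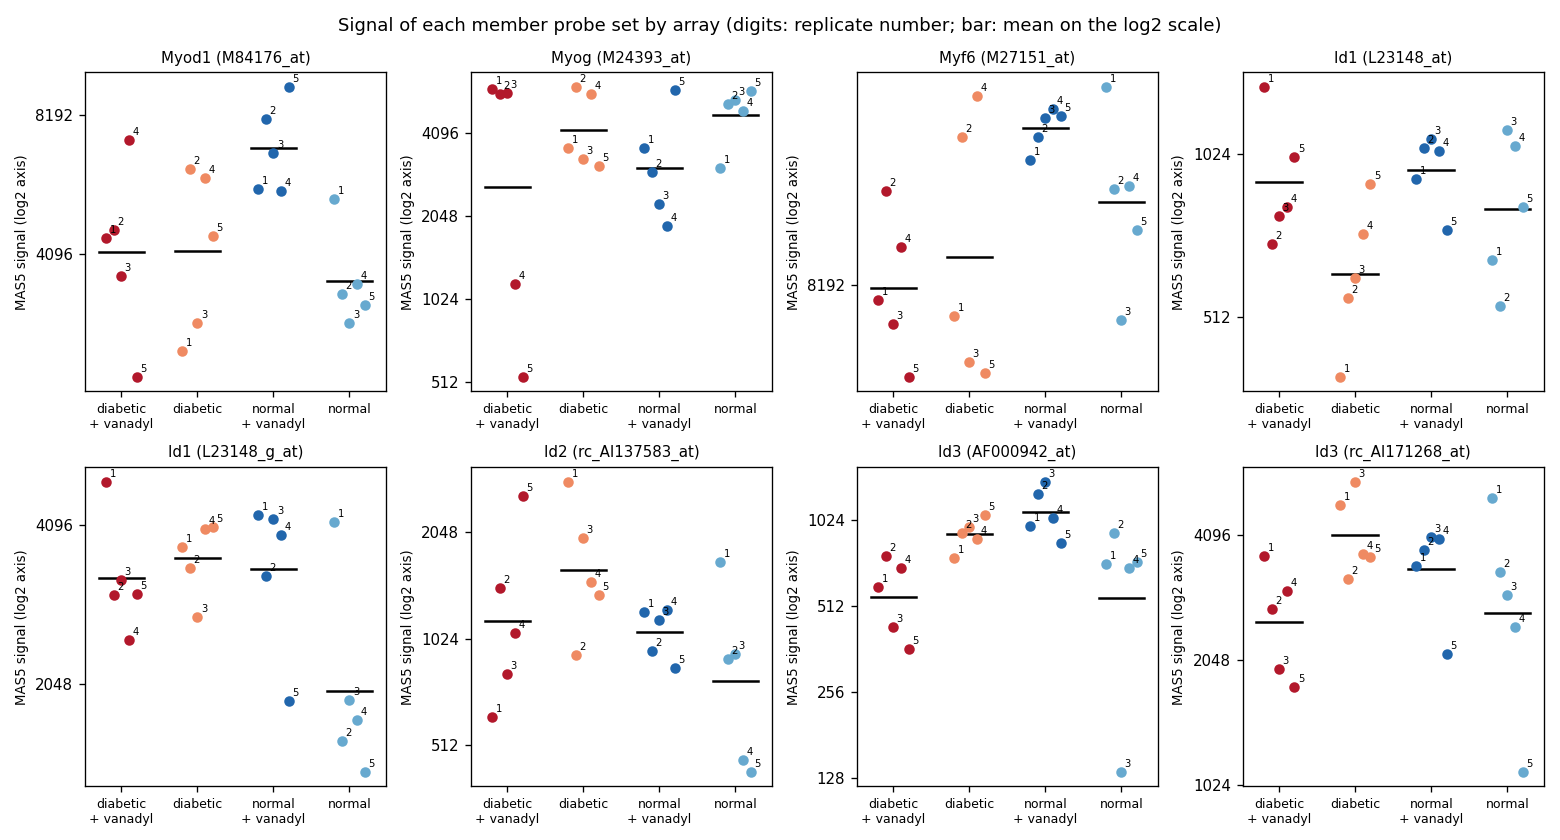
MAS5 signal of each of the 8 member probe sets on a log2 axis, in 4 groups of 5 arrays; digits give the replicate number and bars the mean on the log2 scale. The 5 Myod1 values of treated normal muscle lie above those of untreated normal muscle, and Myog in treated diabetic muscle spans 533 to 5922.

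Myod1 (M84176_at, gene on chromosome 1) encodes the factor that commits precursors to muscle. Its signals were 4448, 4621, 3676, 7233 and 2219.9 in treated diabetic muscle, against 2532, 6258, 2900.0, 5990.1 and 4483 in untreated diabetic muscle. They were 5658, 8035, 6794, 5615 and 9432 in treated normal muscle, against 5393, 3359, 2911, 3529 and 3182 in untreated normal muscle. All 5 treated normal arrays were above the highest untreated normal one, replicate 1, while the diabetic groups spread from 2220 to 7233 and from 2532 to 6258. Myod1 was 1.94-fold higher in treated than in untreated normal muscle, a log2 difference of 0.95 ± 0.31 (SE; 95% interval 0.30 to 1.61; adjusted p = 0.398), with an unadjusted p of 0.00649. The median difference of all probe sets in this comparison was 0.18, and under quantile normalization it was 0.034 and that of Myod1 0.88. Leaving out any 1 array gave values between 0.85 and 1.10.

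In diabetic rats the treated and untreated means of Myod1 were 4439 ± 1827 and 4433 ± 1712 (SD, n = 5 each), a log2 difference of -0.0048 ± 0.31 (SE; 95% interval -0.66 to 0.65; adjusted p = 0.995). The difference between these vanadyl differences, the interaction, was -0.96 ± 0.44 (SE; 95% interval -1.89 to -0.033; adjusted p = 0.358), with an unadjusted p of 0.0432. Diabetic against normal muscle without treatment gave 0.21 ± 0.31 (SE; 95% interval -0.44 to 0.87; adjusted p = 0.778), and with treatment -0.75 ± 0.31 (SE; 95% interval -1.40 to -0.093; adjusted p = 0.225). The groups given vanadyl sulfate overlapped in 1 array, treated diabetic replicate 4.

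Myog (M24393_at, chromosome 13) encodes myogenin, the factor of differentiation. Treated diabetic muscle had 5922, 5680.0, 5755, 1160.2 and 533, against 3627, 6031, 3312, 5701 and 3123 in untreated diabetic muscle. Treated normal muscle had 3610.2, 2956, 2269, 1878 and 5882, against 3065, 5219, 5423, 4943 and 5849 in untreated normal muscle. Treated diabetic replicates 4 and 5 were the lowest of all 20 arrays and the other 3 of that group were among the 7 highest, so the highest value was 11.1 times the lowest, where the other groups had ratios of 1.91 to 3.13. Treated against untreated diabetic muscle gave -0.68 ± 0.54 (SE; 95% interval -1.80 to 0.44; adjusted p = 0.546). That value was -0.11 without replicate 5, which stood farthest from the other arrays, -0.39 without replicate 4 and -0.97 without replicate 1.

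Treated against untreated normal muscle gave a Myog difference of -0.64 ± 0.54 (SE; 95% interval -1.76 to 0.48; adjusted p = 0.716), with 4 of 5 treated arrays under the untreated mean. Diabetic against normal muscle gave -0.19 ± 0.54 (SE; 95% interval -1.31 to 0.93; adjusted p = 0.897). With both 3′ to 5′ ratios as covariates this value turned to 0.53 (adjusted p = 0.774). The intervals of Myog were the widest of the 8 probe sets in all 6 comparisons.

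Myf6 (M27151_at, chromosome 7) encodes the factor that adult fibres hold most of. Its signals were 7812, 10903, 7261, 9183 and 6180.4 in treated diabetic muscle, against 7435, 12855, 6467, 14584 and 6257 in untreated diabetic muscle. In treated normal muscle they were 11967, 12841, 13636, 14016 and 13705, against 14982, 10969.7, 7355, 11068 and 9666 in untreated normal muscle. The treated normal arrays were the most alike of any group and member, with the highest 1.17 times the lowest, and all 5 lay above the 5 treated diabetic arrays. Treated diabetic against treated normal muscle gave a Myf6 difference of -0.70 ± 0.26 (SE; 95% interval -1.25 to -0.16; adjusted p = 0.188), with an unadjusted p of 0.0142.

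In the untreated rats, diabetic against normal muscle gave -0.24 ± 0.26 (SE; 95% interval -0.78 to 0.31; adjusted p = 0.677) for Myf6. Vanadyl sulfate gave -0.14 ± 0.26 (SE; 95% interval -0.68 to 0.41; adjusted p = 0.815) in diabetic and 0.33 ± 0.26 (SE; 95% interval -0.22 to 0.87; adjusted p = 0.707) in normal muscle. These intervals reach at most 0.87 upwards and -0.78 downwards, the narrowest of the 3 factors.

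Id1 on chromosome 3 is read by L23148_at and L23148_g_at, which carry the same accession in their names and gave different pictures. With L23148_at, treated diabetic muscle had 1365, 698, 787, 818 and 1013, against 397, 555, 606, 728 and 903 in untreated diabetic muscle. Treated normal muscle had 921, 1052, 1092, 1037 and 742, against 654, 536, 1138, 1063 and 817 in untreated normal muscle. By this probe set the untreated diabetic group was lowest, and treated against untreated diabetic muscle differed by 0.55 ± 0.26 (SE; 95% interval 0.0047 to 1.10; adjusted p = 0.3), with an unadjusted p of 0.0482. Diabetic against normal muscle gave -0.39 ± 0.26 (SE; 95% interval -0.94 to 0.16; adjusted p = 0.468), below zero.

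With L23148_g_at, the treated diabetic signals were 4949.6, 3023, 3229, 2483 and 3030.3, against 3720.2, 3394, 2743, 4027 and 4061 in untreated diabetic muscle. The treated normal signals were 4281, 3283, 4207, 3918 and 1905, against 4155, 1597, 1911, 1750.3 and 1398 in untreated normal muscle. By this probe set 4 of the 5 untreated normal arrays and treated normal replicate 5 were the lowest of the 20, and untreated normal replicate 1, one of the arrays with a high Gapdh ratio, was the exception at 4155. All 5 diabetic arrays lay above the untreated normal mean, and the difference was 0.83 ± 0.29 (SE; 95% interval 0.22 to 1.45; adjusted p = 0.149), or 1.78-fold, with an unadjusted p of 0.0103. Without normal replicate 1 it was 1.10 and passed the test (adjusted p = 0.0298), as 247 of 6027 probe sets (4.1%) then did.

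For L23148_g_at, vanadyl sulfate gave a difference of -0.13 ± 0.29 (SE; 95% interval -0.74 to 0.49; adjusted p = 0.852) in diabetic and 0.76 ± 0.29 (SE; 95% interval 0.15 to 1.37; adjusted p = 0.489) in normal muscle. Their interaction was -0.89 ± 0.42 (SE; 95% interval -1.76 to -0.021; adjusted p = 0.363), and treated diabetic against untreated normal muscle gave 0.71 ± 0.29 (SE; 95% interval 0.092 to 1.32; adjusted p = 0.342). The log2 signals of L23148_at and L23148_g_at had a Pearson r of 0.12 over the 20 arrays, and of 0.25 after group means were removed. The direction of the Id1 difference between diabetic and normal muscle thus differed by probe set.

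**Figure D3:**
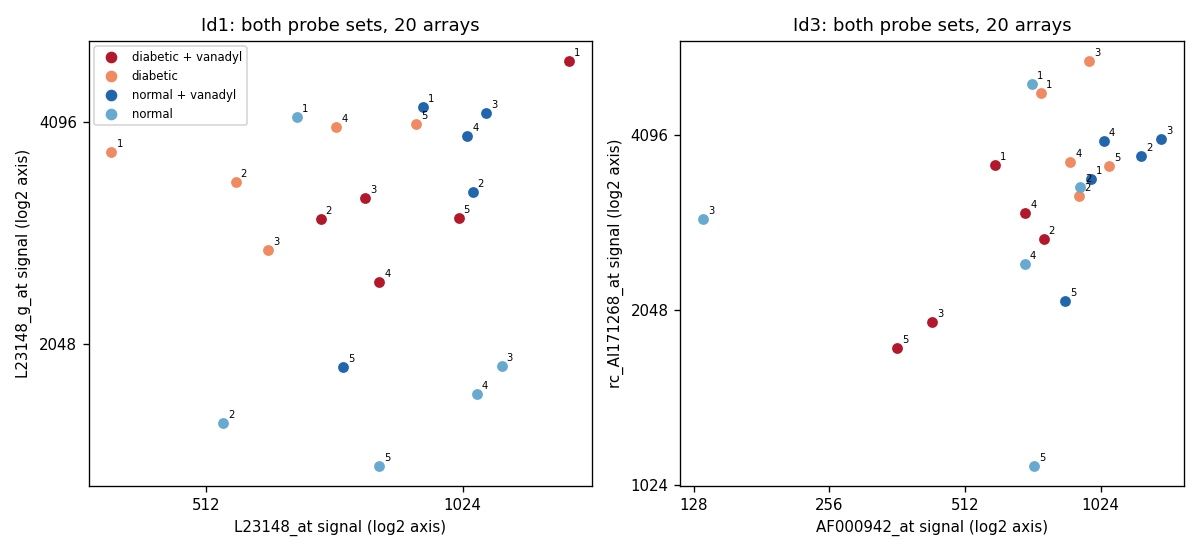
Signals of the 2 Id1 probe sets (left) and of the 2 Id3 probe sets (right) against each other on log2 axes, 1 point for each of 20 arrays, coloured by group with replicate numbers. Neither pair follows 1 line: of the 4 untreated normal arrays that are low for L23148_g_at, replicate 2 is also low for L23148_at, at 536, and replicates 3 and 4 are at 1138 and 1063, while untreated normal replicate 3 is at 135 for AF000942_at and at 2933 for rc_AI171268_at.

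Id2 (rc_AI137583_at, chromosome 6) encodes an inhibitor of E proteins. Its signals were 616, 1418, 814, 1060.3 and 2587 in treated diabetic muscle, against 2831, 922, 1966, 1474 and 1355 in untreated diabetic muscle. Treated normal muscle had 1218, 942, 1157, 1234 and 847, against 1679.9, 897, 929, 465.5 and 432 in untreated normal muscle. All 5 untreated diabetic arrays were above the untreated normal mean of 881, although normal replicate 1, at 1680, was higher than 3 of them. The Id2 difference between diabetic and normal muscle was 1.02 ± 0.39 (SE; 95% interval 0.20 to 1.84; adjusted p = 0.186), 2.03-fold, with an unadjusted p of 0.0175.

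This difference moved with the choice of arrays. Without the 3 arrays of high Gapdh ratio Id2 passed at 1.47 (adjusted p = 0.0308) and with limma's array weights at 1.38 (adjusted p = 0.0186), where 7.7% and 8.54% of all probe sets passed. L23148_g_at of Id1 passed with the same choices, at 1.17 and 1.00 (adjusted p = 0.0177 and 0.0264). In the arrays that remained, the log2 3′ to 5′ ratio of beta-actin did not overlap between diabetic muscle (0.93 to 2.52) and normal muscle (0.58 to 0.63), so that ratio and diabetes cannot be told apart there. With both ratios as covariates Id2 was at 0.58 (adjusted p = 0.614), and without diabetic replicates 1 and 3 at 0.65 (adjusted p = 0.803). For L23148_g_at the difference ranged from 0.71 to 1.17 over the 21 other settings, with limma's adjusted p from 0.0177 to 0.508.

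Markers of immune cells stood high in untreated diabetic muscle as well. In diabetic against normal muscle 6 of the 11 tested immune markers rose and 0 fell, with a median of 1.55 against -0.040 for all genes. Among the markers that rose were Lgals3, a lectin of macrophages (1.49, adjusted p = 0.00374), Fcgr2b, which binds antibody (1.66, adjusted p = 0.00374), the lysozyme Lyz2 (2.58, adjusted p = 0.00505) and the chemokine Ccl2 (1.48, adjusted p = 0.0208). The summed signal of the 11 was 12442 to 23454 in treated diabetic, 27272 to 106143 in untreated diabetic, 17665 to 23990.4 in treated normal and 11639.9 to 19278 in untreated normal muscle, and no immune marker was at 0 on any array. The immune score, the mean log2 difference of the list from untreated normal muscle, was 2.34, 0.90, 2.19, 1.20 and 0.58 in the 5 diabetic arrays, so replicates 1 and 3 led in both the score and Id2. The same 2 arrays had the highest log2 3′ to 5′ ratios of beta-actin in that group, at 2.30 and 2.52. Treated diabetic replicate 5 had an Id2 signal of 2587 and a score of -0.17. The part of these cells in the Id2 values was not tested.

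With vanadyl sulfate Id2 differed by -0.47 ± 0.39 (SE; 95% interval -1.29 to 0.35; adjusted p = 0.57) in diabetic and by 0.45 ± 0.39 (SE; 95% interval -0.37 to 1.27; adjusted p = 0.735) in normal muscle, and the interaction was -0.92 ± 0.56 (SE; 95% interval -2.08 to 0.24; adjusted p = 0.487). The value in diabetic muscle was -0.76 without treated replicate 5, -0.25 without treated replicate 1 and -0.27 without untreated replicate 1. The value in normal muscle was 0.72 without untreated replicate 1, 0.27 without replicate 4 and 0.24 without replicate 5. Immune markers had 3 of 11 fallen and 0 risen in treated against untreated diabetic muscle (Lyz2 -2.28, Fcgr2b -1.32 and Ccl2 -1.48, adjusted p = 0.0219, 0.0335 and 0.0387), and 0 past limma's test, with 2 at an unadjusted p under 0.05, in treated against untreated normal muscle. In the interaction Fcgr2b alone of the 11 passed, at -2.16 (adjusted p = 0.0315).

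**Figure D4:**
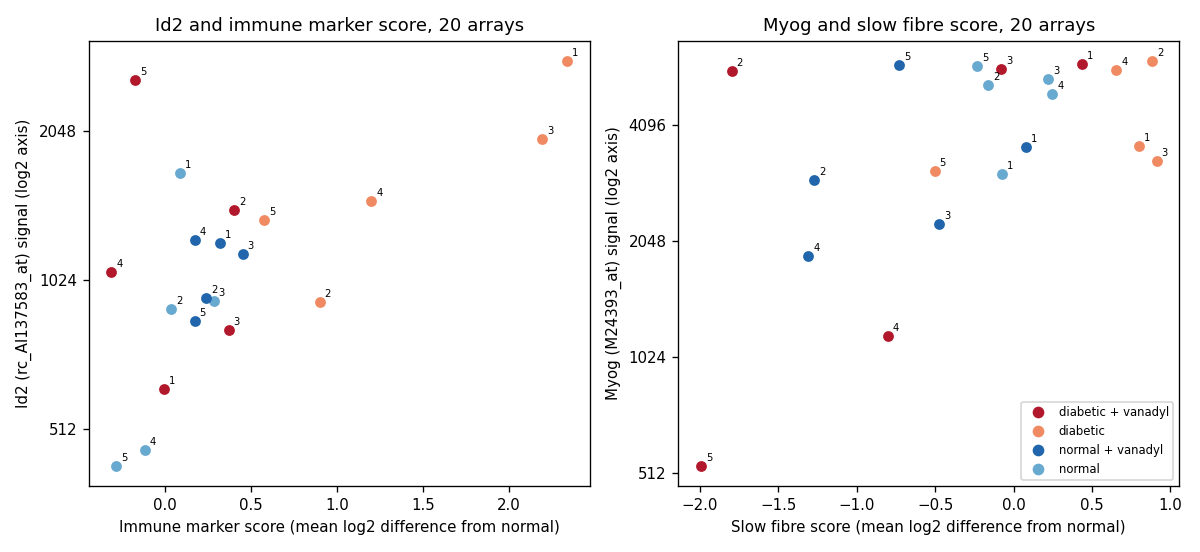
Left, Id2 signal (log2 axis) against the immune marker score; right, Myog signal (log2 axis) against the slow fibre score; both scores are mean log2 differences from untreated normal muscle, with 1 point for each of 20 arrays and replicate numbers beside the points. Diabetic replicates 1 and 3 lie at the upper right of the left panel, and treated diabetic replicate 5 is high in Id2 with an immune score of -0.17 and lowest in both Myog and the slow score.

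Id3 on chromosome 5, also an inhibitor of E proteins, is read by AF000942_at and rc_AI171268_at. With AF000942_at, treated diabetic muscle had 596, 765, 433, 697 and 362, against 756, 918, 964, 877 and 1069 in untreated diabetic muscle. Treated normal muscle had 974, 1260.4, 1394, 1041 and 853, against 719.8, 922, 135, 696 and 730.1 in untreated normal muscle. All 5 treated diabetic arrays were under the untreated diabetic mean and under every treated normal array, while all 5 treated normal arrays were above the untreated normal mean. Untreated normal replicate 3, another array with a high Gapdh ratio, had the lowest signal of the 20.

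In AF000942_at vanadyl sulfate gave a difference of -0.71 ± 0.37 (SE; 95% interval -1.49 to 0.065; adjusted p = 0.35) in diabetic and of 0.98 ± 0.37 (SE; 95% interval 0.20 to 1.76; adjusted p = 0.489) in normal muscle. The interaction was -1.69 ± 0.53 (SE; 95% interval -2.79 to -0.59; adjusted p = 0.164), the smallest unadjusted p of any member and comparison at 0.00442. Without normal replicate 3 the difference in normal muscle was 0.50 and the interaction -1.22 (adjusted p = 0.155). Treated diabetic against treated normal muscle gave -0.96 ± 0.37 (SE; 95% interval -1.74 to -0.19; adjusted p = 0.201). The -0.96 itself does not use normal replicate 3, but its SE, interval and p do, through the spread estimated over all 4 groups. Untreated diabetic against normal muscle gave 0.73 ± 0.37 (SE; 95% interval -0.051 to 1.51; adjusted p = 0.333), and 0.25 without that replicate.

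With rc_AI171268_at, the Id3 signals were 3632, 2712, 1949.7, 2998 and 1763 in treated diabetic muscle, against 4837, 3211, 5488, 3676 and 3623 in untreated diabetic muscle. Treated normal muscle had 3435, 3758, 4030.4, 3991 and 2118, against 5009, 3334, 2933, 2457 and 1103 in untreated normal muscle. The order of the diabetic groups was that of the other probe set, with a difference of -0.69 ± 0.33 (SE; 95% interval -1.38 to -0.0060; adjusted p = 0.3) and an unadjusted p of 0.0482, and the groups overlapped between 3211 and 3632. In normal muscle the difference was 0.34 ± 0.33 (SE; 95% interval -0.34 to 1.03; adjusted p = 0.757), and the interaction was -1.04 ± 0.47 (SE; 95% interval -2.01 to -0.064; adjusted p = 0.34). Diabetic against normal muscle gave 0.62 ± 0.33 (SE; 95% interval -0.072 to 1.30; adjusted p = 0.353). Untreated normal replicate 5, at 1103, was the lowest of the 20 arrays here, and without it the difference between diabetic and normal muscle was 0.30, that between treated and untreated normal muscle 0.028 and the interaction -0.72. The differences between diabetic and normal muscle of both Id3 probe sets were thus above zero, and each was smaller, at 0.25 and 0.30, without 1 low untreated normal array, replicate 3 for AF000942_at and replicate 5 for rc_AI171268_at. Over the 20 arrays the 2 Id3 probe sets had a Pearson r of 0.36, and of 0.13 after group means were removed.

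Of a list of E proteins, MEF2 factors and other helix-loop-helix regulators, 6 of 20 genes were tested: Tcf3 and Tcf4, E proteins that pair with the myogenic factors, the MEF2 factor Mef2d, and the repressors Hes1, Bhlhe40 and Bhlhe41. None of these 6 passed limma's test in any comparison, and by comparison 0 to 2 had an unadjusted p under 0.05. In diabetic against normal muscle their median was 0.082, against -0.040 for all genes, and Tcf4 and Bhlhe41 had the smallest p, with 0.51 ± 0.34 (SE, adjusted p = 0.468) and -0.42 ± 0.48 (SE, adjusted p = 0.696). Tcf3, whose products E12 and E47 are the classical partners of MyoD, had signals of 1087, 1102, 918, 813 and 804 in treated diabetic muscle, against 1131, 1133, 928, 1131 and 1006 in untreated diabetic muscle. It had 1039.7, 1234, 1058, 978 and 1068 in treated normal muscle, against 883, 808, 697, 1151 and 1581 in untreated normal muscle, so the groups overlapped. Bhlhe40 had an interaction of -1.34 ± 0.57 (SE, adjusted p = 0.324).

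Among muscle genes under E-box or MEF2 control, 1 of 20 tested genes rose and 0 fell in diabetic against normal muscle, and 0 rose and 1 fell in treated against untreated diabetic muscle. The gene was the embryonic myosin heavy chain Myh3 in both comparisons. Its signals (X04267_at) were 5668, 3668, 6116, 5939 and 7099 in treated diabetic muscle, against 63137, 28876, 74175, 26452 and 5022 in untreated diabetic muscle, and it fell by 2.34 ± 0.52 (SE, adjusted p = 0.0471). Treated normal muscle had 5160.2, 5015, 4111, 3445 and 3638, against 4287, 2696, 7915, 8481 and 3130.4 in untreated normal muscle, and diabetic against normal muscle gave a rise of 2.57 ± 0.52 (SE, adjusted p = 0.0155). Untreated diabetic replicate 5, at 5022, lay within the other groups and the other 4 lay above all of them. Another Myh3 probe set, M12098_s_at, gave 4.14 and -4.63 (adjusted p = 0.00557 and 0.00503), and a further one, K03468_s_at, gave 0.34 and -0.46 (adjusted p = 0.675 and 0.546).

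The same list held the cell cycle inhibitor Cdkn1a, a MyoD target in cultured mouse muscle cells, with 1918, 934, 1494, 1328 and 1135 in untreated diabetic muscle, against 609, 247, 321, 694 and 462 in untreated normal muscle. These groups did not overlap, as in 5.09% of all probe sets, and the difference of 1.57 ± 0.47 (SE, adjusted p = 0.0887) did not pass. The other Cdkn1a probe set, L41275cds_s_at, gave 0.47 (adjusted p = 0.736). The acetylcholine receptor subunit Chrnd, a target of myogenin in mouse muscle, had 126, 421, 282, 776 and 92.8 in treated diabetic muscle, against 1282, 875, 1066, 854 and 999 in untreated diabetic muscle. Here too the groups did not overlap, as in 4.45% of all probe sets, with a difference of -1.89 ± 0.50 (SE, adjusted p = 0.103). The subunits Chrna1 and Chrng had values of -0.39 and 0.37 (adjusted p = 0.535 and 0.414). Chrnd in untreated normal muscle spanned 122 to 1235 and overlapped untreated diabetic muscle. Diabetic against normal muscle gave 1.18 ± 0.50 (SE, adjusted p = 0.234) for it. In treated against untreated normal muscle 0 of 20 passed limma's test and 3 had an unadjusted p under 0.05, with the smallest p for the cardiac actin Actc1 at -2.62 ± 0.76 (SE, adjusted p = 0.335) and the slow troponin Tnni1 at -1.60 ± 0.57 (SE, adjusted p = 0.413).

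Of 10 tested denervation and atrophy genes, 2 rose and 0 fell in diabetic against normal muscle, 0 rose and 2 fell in treated against untreated diabetic muscle, and 1 fell in the interaction. They were Myh3 and the ankyrin repeat protein Ankrd1, a stress-responsive partner of titin. Ankrd1 had 1788, 1533, 566, 4784 and 995 in treated diabetic muscle, against 16285, 18198, 17292, 16634 and 3383 in untreated diabetic muscle, and 1478, 709, 1205, 913 and 835 in untreated normal muscle. Its difference was 3.62 ± 0.53 (SE, adjusted p = 0.00162) for diabetic over normal muscle and -3.03 ± 0.53 (SE, adjusted p = 0.0118) for treated over untreated diabetic muscle. Its interaction was -3.80 ± 0.75 (SE, adjusted p = 0.0442). Over the same arrays Myog gave -0.19 and -0.68 in the 2 comparisons, with intervals of -1.31 to 0.93 and -1.80 to 0.44.

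None of the 13 tested genes of BMP signalling upstream of the Id genes passed limma's test in any comparison, and by comparison 0 to 4 had an unadjusted p under 0.05. In treated against untreated normal muscle all 13 had differences above zero, with a median of 0.30 where that of all genes was 0.17. Quantile normalization moved the median of all probe sets in this comparison from 0.18 to 0.034, so part of the upward lean is shared by the whole array. The list also holds antagonists such as Fst, so a count above zero does not give the direction of the BMP signal. The shared transducer Smad4 had 1728, 2092, 1768, 1420.2 and 2266 in treated normal muscle, against 1598, 1273, 1324, 909 and 884 in untreated normal muscle, a difference of 0.64 ± 0.24 (SE, adjusted p = 0.489). In diabetic against normal muscle 5 of 13 were above zero, and the receptor Acvr2b and the activin antagonist Fst had the smallest p, at 0.97 ± 0.33 (SE, adjusted p = 0.129) and 1.24 ± 0.64 (SE, adjusted p = 0.338). Smad1, which carries the BMP signal to the Id promoters, had 207, 309.9, 228, 327 and 282 in treated diabetic muscle, against 425, 363, 398, 455 and 280.2 in untreated diabetic muscle. That difference was -0.48 ± 0.26 (SE, adjusted p = 0.364), with the groups overlapping in treated replicates 2, 4 and 5.

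Among 11 cell cycle genes, cyclin D1, Ccnd1, fell in diabetic against normal muscle and the other 10 did not pass. Its signals (D14014_at) were 482, 656, 499.7, 679 and 618 in untreated diabetic muscle, against 873, 2212, 1088, 1701 and 1512 in untreated normal muscle. These groups did not overlap, as in 5.09% of all probe sets, and the difference was -1.25 ± 0.31 (SE, adjusted p = 0.0456). The other 3 Ccnd1 probe sets gave -1.03, -0.29 and -0.44 (adjusted p = 0.32, 0.733 and 0.617). Satellite cells are the precursors in which MyoD is best known, and 5 of 10 listed markers were tested: Vcam1, Met, Sdc4, Cxcr4 and Itga7. Pax7, Myf5, Cdh15, Cd34 and Calcr were not. Of the 5, 0 passed limma's test in each comparison and at most 1 had an unadjusted p under 0.05. Their median in diabetic against normal muscle was 0.16, with the integrin Itga7 at 1.05 ± 0.29 (SE, adjusted p = 0.0627) and the receptor Met at -0.99 ± 0.49 (SE, adjusted p = 0.313), and their summed signal was 26794 to 32935 in diabetic and 13807 to 31428 in normal muscle. Itga7 alone gave 14420 to 22507 of that sum in diabetic and 5675 to 17029 in normal muscle.

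The other lists place these values in the tissue. Of 8 tested slow fibre genes, 1 fell and 0 rose in treated against untreated diabetic muscle, the slow tropomyosin Tpm3 (S82383_s_at, -1.36, adjusted p = 0.0471), with other probe sets at 1.63 and -0.28 (adjusted p = 0.231 and 0.756). All 8 were below zero there, with a median of -1.53. In treated against untreated normal muscle 1 of the 8 was above zero, with a median of -0.77 against 0.17 for all genes, and 0 passed. None of 12 fast fibre genes passed in any comparison, with 0 to 9 at an unadjusted p under 0.05, and in treated against untreated diabetic muscle their median was 0.68. Adipocyte markers had 3 of 7 risen in diabetic against normal muscle, Cidea (2.18), the fatty acid carrier Fabp4 (1.86) and the lipase Lipe (1.09, adjusted p = 0.00204, 0.0344 and 0.0446), and Cidea fell in treated against untreated diabetic muscle (-2.29) and in the interaction (-2.39, adjusted p = 0.00299 and 0.0442). Not all went 1 way: in diabetic against normal muscle 5 of the 7 adipocyte markers were above zero, with a median of 1.09. There 6 had an unadjusted limma p under 0.05, counted in both directions. In treated against untreated diabetic muscle 2 of the 7 were above zero, with a median of -0.13. Of 7 endothelial markers, Esm1 rose by 1.96 and fell by 2.08 in these 2 comparisons (adjusted p = 0.00257 and 0.00299) and the other 6 did not pass. In diabetic against normal muscle 2 of the 7 were above zero, with a median of -0.081, and in treated against untreated diabetic muscle 4 of the 7, with a median of 0.15. Markers of smooth muscle (6 tested), fibroblasts (9), nerve and Schwann cells (5), blood (4) and skeletal muscle itself (7) had 0 past limma's test in each comparison, with at most 1, 2, 2, 0 and 5 at an unadjusted p under 0.05.

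By Pearson correlation of log2 signals over the 20 arrays, among 3581 other tested genes, the patterns most like that of Myod1 were those of Ap3m1 (0.79), the Smad transducer Smad4 (0.79) and Myf6 (0.72). Those most like Myog were Aph1a (0.83), Stk25 (0.80) and Guk1 (0.79), and those most like Myf6 were Polr3k (0.83), Smc3 (0.78) and Cd55 (0.77). For Id1, read by L23148_g_at, they were Klf4 (0.71), Ugdh (0.69) and Pla1a (0.68). For Id2 they were the annexin Anxa1 (0.91), the intermediate filament protein vimentin, Vim (0.89), and the cathepsin Ctss (0.87). For Id3, read by rc_AI171268_at, they were Ets1 (0.81), Cd9 (0.77) and Cpq (0.77). These values describe the 20 arrays, which share groups and RNA quality, and they are the highest of many. After group means were removed, they ranged from 0.50 (Id1 with Pla1a) to 0.91 (Id2 with Vim). Those of Id2 with Anxa1 and Ctss were then 0.89 and 0.90.

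The signals were set against fibre type and the 3′ to 5′ ratios over the 20 arrays, in 24 relations of the 6 genes with the slow score, the fast score and both control ratios, chosen after the values were seen. None passed after Benjamini-Hochberg adjustment of permutation p-values. The permutations ran over all 20 arrays without regard to group, so differences between groups enter these p-values. Myog and the slow fibre score had r = 0.55 (two-sided permutation p = 0.0104, adjusted p = 0.204) and rho = 0.48 (permutation p = 0.0354, adjusted p = 0.212). The r was 0.53 once the 2 arrays of most extreme score were left out, judged from the median, and 0.49 after group means were removed. The slow scores of treated diabetic muscle were 0.44, -1.80, -0.079, -0.80 and -1.99, so that replicates 4 and 5, lowest in Myog, had low scores, as did replicate 2, which had a Myog signal of 5680.0. Myod1 and the fast score had r = -0.39 (permutation p = 0.0917, adjusted p = 0.314), or -0.18 after group means were removed. For Myf6 and the fast score r was -0.46 (permutation p = 0.0389, adjusted p = 0.204), or -0.37 after group means were removed. That of Myog and the fast score was 0.16 (permutation p = 0.492, adjusted p = 0.656). With the slow score Myod1 had r = -0.17 (permutation p = 0.472, adjusted p = 0.656). Id2 and the beta-actin ratio had r = 0.52 (permutation p = 0.0188, adjusted p = 0.204) and rho = 0.50 (permutation p = 0.0274, adjusted p = 0.212), with r = 0.67 without the 2 farthest arrays and 0.52 after group means were removed. With the Gapdh ratio Id2 had r = 0.065 (permutation p = 0.783, adjusted p = 0.854) and rho = 0.32 (permutation p = 0.171, adjusted p = 0.293), with 0.51 without the 2 farthest arrays and 0.19 after group means were removed.

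By the size of r with the beta-actin ratio, Id1, Myf6 and Id3 came next after Id2. L23148_g_at of Id1 and the beta-actin ratio had r = 0.47 (permutation p = 0.038, adjusted p = 0.204) and rho = 0.39 (permutation p = 0.0876, adjusted p = 0.246), with r = 0.34 without the 2 farthest arrays and 0.54 after group means were removed. With the Gapdh ratio its r was 0.29 (permutation p = 0.216, adjusted p = 0.399) and its rho 0.33 (permutation p = 0.152, adjusted p = 0.281), with r = 0.37 without the 2 farthest arrays and 0.62 after group means were removed. For rc_AI171268_at of Id3 and the beta-actin ratio r was 0.41 (permutation p = 0.0667, adjusted p = 0.267) and rho 0.34 (permutation p = 0.145, adjusted p = 0.281), with r = 0.32 without the 2 farthest arrays and 0.58 after group means were removed. For the same probe set and the Gapdh ratio r was 0.21 (permutation p = 0.364, adjusted p = 0.553) and rho 0.15 (permutation p = 0.534, adjusted p = 0.612), with r = 0.27 without the 2 farthest arrays and 0.50 after group means were removed. Myf6 ran the other way, with r = -0.46 (permutation p = 0.0424, adjusted p = 0.204) and rho = -0.36 (permutation p = 0.119, adjusted p = 0.281) for the beta-actin ratio, -0.68 without the 2 farthest arrays and -0.27 after group means were removed. With the Gapdh ratio Myf6 had r = -0.35 (permutation p = 0.125, adjusted p = 0.332) and rho = -0.51 (permutation p = 0.0239, adjusted p = 0.212), with r = -0.20 without the 2 farthest arrays and -0.23 after group means were removed. Myod1 and the Gapdh ratio had r = -0.29 (permutation p = 0.21, adjusted p = 0.399) and rho = -0.52 (permutation p = 0.0191, adjusted p = 0.212), with r = -0.28 without the 2 farthest arrays and -0.098 after group means were removed.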

How the data were processed

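Rear leg muscle mRNA of 20 samples was hybridised to one-colour oligonucleotide arrays. The deposited values are intensities, one signal per probe set, made with MAS5 per the submitters' processing notes (version not given in the sources used here). Their trimmed means show a common scaling by the authors. Genes were named from the platform annotation: 7018 probe sets have 1 symbol, 308 several and 1473 are not listed there. Other genes than the members are represented by their tested probe set of highest mean signal.

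Probe sets above the array's 40th percentile in at least 5 of 20 arrays, controls left out, were tested (6027). Signals were tested as log2(signal + 16) with limma 3.58.1 in R 4.3.3 (lmFit, contrasts, eBayes, group means, all 4 groups), two-sided, Benjamini-Hochberg threshold 0.05. The fit was checked on simulated data. Correlations used 100000 permutations. Settings tried were other pseudocounts, filters and normalization, the replicate block, ratio covariates, array weights and arrays left out. Precision is limited by 5 arrays a group.

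The members, the 16 gene lists and the tests were chosen with earlier results of these data known. Genes of a list were named where they passed (at most 4 per comparison), or otherwise the 2 with the smallest p; Tcf3, Bhlhe40, Chrna1, Chrng, Chrnd, Cdkn1a, other probe sets of named genes and the relations were added after their values were seen.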

Additional observations from a re-analysis of the deposited data

Results flagged for a closer look

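In a group of 5, a value was singled out when its gap to the nearest other exceeded 0.710 of the group's range. Of 32 groups of member values 4 were singled out, where chance gives about 1 in 20. Untreated normal replicate 1 stood apart for Myog at 3065, below the other 4, and for L23148_g_at of Id1 at 4155, above the other 4. Untreated normal replicate 3 stood apart for AF000942_at of Id3, with 135 against 696 to 922 in the other 4. Both are arrays of high Gapdh 3′ to 5′ ratio. Treated normal replicate 5 stood apart for rc_AI171268_at of Id3, with 2118 against 3435 to 4030.4.

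The vanadyl difference of AF000942_at of Id3 ran in opposite directions: all 5 treated diabetic arrays lay under the untreated diabetic mean, and all 5 treated normal arrays above the untreated normal mean. The diabetes difference did likewise, above zero in every untreated diabetic array and below zero in every treated one. The untreated normal mean used here includes replicate 3, at 135. With that array left out, untreated diabetic replicate 1, at 756, would not lie above the untreated normal mean. The difference between diabetic and normal muscle and the interaction were also smaller in size without it, as given above. Both describe the same interaction of -1.69, which did not pass limma's test (adjusted p = 0.164).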

How the results depend on the processing

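The count of members past the test was 0 in 132 of 135 settings. The exceptions concern diabetic against normal muscle, where it was 2 without the 3 arrays of high Gapdh ratio and 2 with array weights (L23148_g_at of Id1 and Id2 both times), and 0 to 1 when 1 array was left out (1, L23148_g_at, without normal replicate 1). The cause was not tested. Of 30 correlations between same-numbered deviations from group means, 11 were over 0.1 (-0.28 to 0.62). Differently numbered ones were not computed beside them, so whether replicate numbers pair the samples was not settled. With the replicate block no call changed, and in diabetic against normal muscle L23148_g_at was at 0.83 (adjusted p = 0.107) and Id2 at 1.02 (adjusted p = 0.217).

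Of 1080 member differences recomputed, 1025 kept direction and side of the threshold, 5 newly passed and 50, none past the test either way, changed sign. Treated diabetic minus treated normal muscle is called here the treated groups. The larger pseudocount gave -0.051 for AF000942_at of Id3 in treated diabetic minus untreated normal muscle and 0.033 for Myog in the interaction. Quantile normalization gave 0.11 for Myod1 in treated minus untreated diabetic muscle, 0.18 and 0.17 for L23148_at and L23148_g_at in the treated groups, 0.0090 for rc_AI171268_at of Id3 in treated diabetic minus untreated normal muscle, and 0.23 for Myog in the interaction. The ratio covariates gave 0.53 for Myog in diabetic minus normal muscle, 0.0097 for Myod1 in treated minus untreated diabetic muscle, -0.21 for Id2 in the treated groups, -0.058 for AF000942_at in treated diabetic minus untreated normal muscle, and -0.019 for L23148_at in the interaction. Without the high Gapdh arrays AF000942_at and rc_AI171268_at were at -0.52 and 0.14 in treated diabetic minus untreated normal muscle. Without diabetic replicates 1 and 3, Myf6 was at 0.0027 in diabetic minus normal muscle. Array weights gave 0.19 for Myod1 in treated minus untreated diabetic muscle, 0.14 for Myog and -0.031 for Id2 in the treated groups, -0.12 and 0.28 for AF000942_at and rc_AI171268_at in treated diabetic minus untreated normal muscle, and 0.40 for Myog in the interaction.

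With 1 array left out, the differences that changed sign ranged as follows. In the treated groups they were -0.22 to 0.017 for L23148_at, -0.26 to 0.041 for L23148_g_at, -0.19 to 0.32 for Id2 and -0.52 to 0.34 for Myog. In treated diabetic minus untreated normal muscle they were -0.46 to 0.20 for AF000942_at and -0.39 to 0.15 for rc_AI171268_at. In treated minus untreated diabetic muscle they were -0.26 to 0.040 for Myf6 and -0.21 to 0.22 for Myod1, and in the interaction -0.33 to 0.53 for Myog.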
